A study of Drosophila melanogaster with 2 samples.

Results

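CG34367 binding was described at 10 genes of the BMP pathway of Drosophila melanogaster, which were taken by name: dpp, gbb, tkv, sax, put, Mad, Med, brk, Dad and shn. They are 10 of the 13945 protein-coding genes annotated on the 6 chromosome arms. The list was drawn up with earlier results of these data known, and shn was picked with its count known. The material was 2 ChIP-seq libraries, biological replicates 1 and 2 of a single group, made from whole pupae aged 24 hours. All animals came from 1 transgenic line that carries CG34367, a homeodomain protein, with GFP at its C-terminus, and chromatin was pulled down with an antibody to GFP. There is no second genotype, stage or treatment, so nothing here compares conditions and no test between groups was possible. The sources used here give neither what drives the tagged protein nor the number of animals behind each library. In whole animals, binding in a few cells and weak binding in many cannot be told apart, and the peak lists hold no marker of tissue against which the label could be checked.

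BMP signalling starts with secreted ligands, in flies mainly Dpp and Gbb, which bind pairs of type I receptors (Tkv, Sax) and type II receptors (Put). The activated receptors phosphorylate the SMAD protein Mad, which enters the nucleus with its partner Med, and with the zinc finger protein Shn this complex silences brk, itself a repressor of Dpp target genes, while Dad is an inhibitory SMAD that is induced by the pathway and dampens it. In pupae the pathway is known for its part in the wing, where it shapes the veins. Apart from the pupal wing, the pathway acts at growing motor nerve endings, a role not tied here to the pupal stage.

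A joint list of 6270 peaks that passed the authors' reproducibility threshold was the main measurement, and each peak was placed by its summit, the single base of highest signal. Of its summits, 49 lay inside the 10 genes or within 2 kb of them. The gene shn alone held 20, and tkv followed with 8, Dad with 6, dpp with 5, Mad with 3, put, Med and brk with 2 each and gbb with 1. At sax there was none. Taking each library alone, as its own 6270 strongest peaks, gave 43 summits in replicate 1 and 51 in replicate 2 (mean 47.0 ± 5.66, SD, n = 2).

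Most of the summits were intronic. Of the 49, 40 were in introns, 6 upstream, 1 downstream, 2 in a 5' UTR, and 0 in coding exons or 3' UTRs. By gene, shn gave 19 of the 40 and tkv 8, while gbb, Med and brk gave 0, so the shares below lean on these long genes. First introns of at least 1 transcript held 29 of the intronic summits. The median distance to the nearest transcription start site (TSS) of the same gene was 2503 bp, and 5 summits (10.2%) lay within 500 bp of one. The same count, added after the values were seen, over every pairing of a joint summit with a protein-coding gene in or within 2 kb gave 42.1% in introns, against 81.6% at the members, 32.0% within 500 bp of a TSS and a median distance of 1455 bp. Length enters here too: for genes of 10 kb or longer the intronic share was 76.6%, against 90.5% at the members of that length, with 19.4% against 9.52% within 500 bp and medians of 3355 and 2576 bp.

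The sequence under the strongest joint peak is shown for the 6 genes for which a window was read, because it had the highest joint signal at each gene. Each window reaches 50 bp to both sides of its summit and was read from the plus strand of the RefSeq Release 6 assembly, to which dm6 corresponds. Capitals would mark 4 core sequences on either strand: TAATTA and TAATTG, which homeodomains bind, TAAACA, which forkhead proteins bind, and AGATAAG, which GATA factors bind. None of these 6 windows held any of the 4. Over all 49 member summits 16 held at least 1 (32.7%), close to the 31.3% of the joint list. The brk window, 5438 bp upstream and nearest to brk, lies outside the 2 kb limit and is not one of these 49. Among the 49, the strongest brk summit had a joint signal of 677, and its window holds the reverse complement of TAAACA. At Dad the choice of window rests on a near tie, with a joint signal of 594 against 584 for a peak that does hold 2 of the cores and is the stronger one in replicate 1 (354 against 271).
dpp strongest window, chr2L:2433586-2433686: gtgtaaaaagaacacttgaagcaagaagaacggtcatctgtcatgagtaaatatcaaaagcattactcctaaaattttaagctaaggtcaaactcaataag
tkv strongest window, chr2L:5254285-5254385: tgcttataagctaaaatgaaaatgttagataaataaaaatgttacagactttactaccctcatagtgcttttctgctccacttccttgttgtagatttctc
put strongest window, chr3R:14624223-14624323: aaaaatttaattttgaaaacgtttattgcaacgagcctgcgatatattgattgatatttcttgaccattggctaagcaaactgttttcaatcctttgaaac
Mad strongest window, chr2L:3153360-3153460: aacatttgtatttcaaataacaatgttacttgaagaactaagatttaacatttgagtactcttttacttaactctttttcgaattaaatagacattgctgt
brk strongest window, chrX:7302451-7302551: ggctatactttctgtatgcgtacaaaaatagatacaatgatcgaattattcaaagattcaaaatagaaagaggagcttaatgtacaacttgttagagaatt
Dad strongest window, chr3R:17065117-17065217: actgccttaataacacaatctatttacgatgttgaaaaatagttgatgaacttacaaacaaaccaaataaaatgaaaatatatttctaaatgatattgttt
Their GC content ran from 22.8% at Dad to 32.7% at dpp.

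At 4 of these genes a weaker joint peak did hold a homeodomain core, and those windows are shown for contrast, with the cores in capitals. The window shown for tkv holds TAATTA, and those of put, Mad and Dad hold TAATTG or its reverse complement. Further tkv peaks, with joint signals of 290 and 148, hold the reverse complement of TAATTG and are not shown. The Dad window also holds the forkhead core.
tkv homeodomain-core window, chr2L:5256097-5256197: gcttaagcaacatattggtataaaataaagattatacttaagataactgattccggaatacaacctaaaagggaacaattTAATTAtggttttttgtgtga
put homeodomain-core window, chr3R:14622659-14622759: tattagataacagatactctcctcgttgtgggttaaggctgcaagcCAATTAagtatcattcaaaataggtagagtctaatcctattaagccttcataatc
Mad homeodomain-core window, chr2L:3154913-3155013: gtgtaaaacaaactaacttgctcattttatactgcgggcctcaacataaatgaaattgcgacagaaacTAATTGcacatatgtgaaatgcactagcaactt
Dad homeodomain-core window, chr3R:17059578-17059678: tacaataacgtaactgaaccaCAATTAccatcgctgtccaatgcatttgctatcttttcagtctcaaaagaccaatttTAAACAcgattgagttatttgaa
Their joint signals were 222, 218, 240 and 584, compared with 835, 704, 344 and 594 for the strongest peaks of the same genes. The signal is the authors' peak score, whose scaling is not given. It ran from 137 to 4557 in the joint list, with a median of 248.

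At dpp, the ligand that patterns the wing, the main site was in the first intron of 1 of its 4 transcripts, the one that starts at the first TSS. The gene spans 31.5 kb on 2L (2428372 to 2459823, plus strand) and has 4 TSS. Its strongest peak (2433479 to 2433820) had its summit 5264 bp after the first TSS and a joint signal of 1800, rank 56 of 6270. Its signal was 1068 in replicate 1, at rank 47, and 749 in replicate 2, at rank 87. A further 3 intronic summits stood around it, at 4658, 6070 and 8087 bp, with joint signals of 406, 140 and 215, and 1 lay 1712 bp upstream at 509. So 1 peak dominated the locus in both libraries, and all of the intronic summits belonged to the first part of the gene. No joint summit lay near the later TSS at 21.8, 22.9 and 26.4 kb.

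The second ligand gene, gbb, is short, 1.7 kb on 2R (23851562 to 23853247, plus strand), and had no summit inside it. A strong peak lay 1163 bp upstream (23850249 to 23850550), with a joint signal of 1729 and rank 68. Its signal was 1212 in replicate 1, at rank 31, and 520 in replicate 2, at rank 272. This summit was inside the neighbouring gene ytr and 98 bp from the TSS of eIF6, so eIF6 and not gbb was its nearest gene. Proximity cannot tell which of these genes the site serves.

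Among the receptors, binding was spread over the long type I receptor gene tkv, and no joint summit was found within 2 kb of sax. The tkv gene covers 52.4 kb of 2L (5219000 to 5271384, minus strand), and 7 of its 8 summits lay in a first intron. The strongest, 17049 bp after the first TSS, had a joint signal of 835 and rank 442, with rank 378 in replicate 1 and 661 in replicate 2. The next, at 9943 bp, had a signal of 606 and ranks 733 and 1023. These were the only tkv peaks among the strongest 1000 of the joint list. Weaker summits separated the libraries: the one 574 bp after the TSS had no peak in replicate 1 and rank 4700 in replicate 2, and the one at 33038 bp had ranks 11274 and 4839. Replicate 1 alone gave 5 summits at tkv and replicate 2 alone gave 9 (mean 7.0 ± 2.83, SD, n = 2). Genes of the cytochrome P450 family lie nested within tkv, and Cyp4ac1 rather than tkv was the nearest gene for 4 of the 8.

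The other type I receptor gene, sax (3.6 kb on 2R, 7806484 to 7810067, plus strand), had 0 joint summits within 2 kb. When the limit was widened to 5000 bp, sax did have a joint summit, but sax was not the nearest gene to any. The longer pooled list held 1 peak within 2 kb, at rank 13648 of 30000 and a q-value of 0.0665. The list of replicate 1 held 2 peaks there, the best at rank 19684 with a q-value of 0.566. The list of replicate 2 held 4, the best at rank 13481 with a q-value of 0.00375, the only one of them at 0.05 or less. These best peaks were taken in each list separately and were not matched to each other. So within 2 kb sax had no joint peak, and a weak one with a q-value of 0.05 or less in replicate 2 alone. This q-value limit passed 18385 of the 30000 peaks of replicate 2 and 9154 of those of replicate 1, so the same limit let through more peaks of replicate 2. The type II receptor gene put (6.7 kb on 3R, 14619030 to 14625703, minus strand) had a peak in its first intron, 1430 bp from the TSS, with a joint signal of 704 and rank 610. The libraries ranked it alike, at 684 and 623. A second summit, at 2994 bp, had a signal of 218 and ranks 3316 and 4746.

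The SMAD genes differed in where they were bound. Mad, the transducing SMAD (13.6 kb on 2L, 3146056 to 3159643, minus strand), had 3 summits, all in a first intron and none among the strongest 2000 of the joint list. Their joint signals were 159, 240 and 344 in order from the first TSS. Ranks in replicate 1 were 4653, 2946 and 1612, and in replicate 2 they were 7734, 4283 and 2905, so each stood higher in replicate 1. The strongest of the 3 lay 657 bp upstream of the second TSS. Med, the common partner (4.3 kb on 3R, 31611046 to 31615375, plus strand), had a weak summit at its start and a strong one past its end. The first lay 31 bp after the TSS in the 5' UTR, inside the overlapping gene CycG as well, with a joint signal of 176 and ranks 3394 and 6574. The second lay 5125 bp after the TSS, with a joint signal of 1783 and ranks 40 and 132, but only 11 bp from the TSS of Mnat9, its nearest gene.

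At brk, which encodes the repressor, every summit was upstream. The gene is 3.2 kb long on X (7307939 to 7311132, plus strand) and held none inside, but it was the nearest gene for 7 joint summits spread from 773 to 7438 bp before its TSS. The strongest (7302359 to 7302671), 5438 bp upstream, had a joint signal of 1081 and rank 249, with ranks 241 and 305 in the libraries. The one closest to the TSS had a signal of 677 and ranks 956 and 412. Of the 7, 2 lay within 2 kb and a further summit was 1 bp outside that limit, at 2001 bp. That summit and the one at 1796 bp share a single peak in each library (ranks 696 and 1091), so their library values are the same measurement. All 7 also lay inside CG1677, a gene on the opposite strand with 23 joint summits by the same count, so the cluster cannot be credited to brk alone.

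Dad, the inhibitory SMAD gene (16.4 kb on 3R, 17054007 to 17070408, plus strand), had 6 summits within 2 kb, 2 of them upstream and 4 in introns. The strongest were 11160 and 5621 bp after the first TSS, with joint signals of 594 and 584. Their ranks were 1010 and 823, and 632 and 1471, so the libraries differed on their order. The summit 456 bp upstream of the TSS was weak, with a joint signal of 151 and ranks 8017 and 4141. A further one, 4895 bp upstream and nearest to Dad, had no peak in replicate 1 and rank 4260 in replicate 2. Taken alone, replicate 1 gave 5 summits at Dad and replicate 2 gave 7 (mean 6.0 ± 1.41, SD, n = 2).

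**Figure D1:**
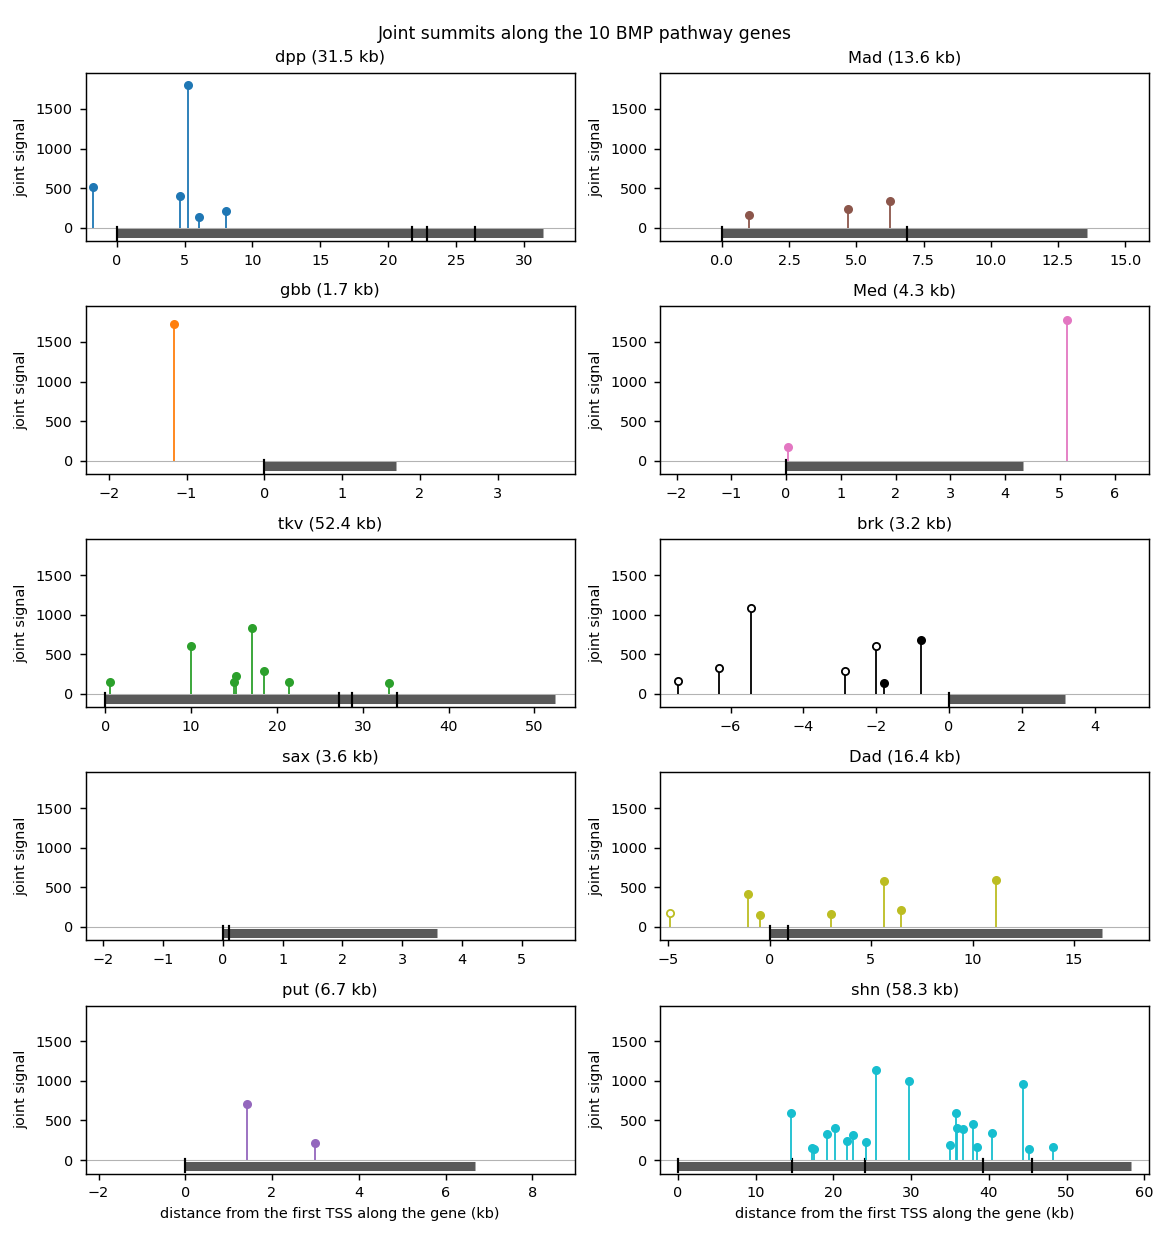
Joint summits along each of the 10 genes, by distance in kb from the first TSS in the direction of transcription and by joint signal; vertical stems are summits. The single tall stems of dpp, gbb and Med, at 1800, 1729 and 1783, stand out from the many moderate stems of shn, none of which passes 1134, and sax has none.

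The most summits were at shn, which encodes the zinc finger cofactor of Mad and Med. The gene covers 58.3 kb of 2R (11159086 to 11217394, plus strand), with 5 TSS and 6 transcripts. Its 20 joint summits placed it at rank 5 among the 13945 genes by count and at rank 458 by density per 10 kb. It was picked with its count known, so these ranks are descriptions. Replicate 1 alone gave 16 and replicate 2 alone gave 22 (mean 19.0 ± 4.24, SD, n = 2). In introns lay 19 of the summits, 13 of them in a first intron, and the other lay in a 5' UTR.

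These summits filled the middle of shn and left its ends nearly empty. They ran from 14.5 to 48.2 kb after the first TSS, a span of 33.7 kb with 5.94 summits per 10 kb, and the last stood 10.1 kb before the end of the gene. Between the first and second TSS there was 1 summit (0.679 per 10 kb). The stretch from the second TSS at 14.7 kb to the third at 24.1 kb had 6 (6.37 per 10 kb), and the next one to 39.2 kb had 9 (5.98 per 10 kb). From there to the fifth TSS at 45.5 kb there were 3 (4.72 per 10 kb), and beyond it 1 (0.783 per 10 kb). Neighbouring summits were a median of 1326 bp apart, with gaps from 205 to 5307 bp.

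The 3 strongest shn peaks had their summits 1338, 5550 and 1119 bp from the nearest TSS of shn. One at 25.5 kb (11184423 to 11184715) had a joint signal of 1134 and rank 217, with a signal of 457 in replicate 1 (rank 390) and 680 in replicate 2 (rank 120). Those at 29.7 and 44.4 kb had joint signals of 1000 and 959. Their ranks were 252 and 378 for the former, and 469 and 236 for the latter. Thus all 3 were among the strongest 500 peaks of both libraries. Of the 20, 12 were above the median signal of the joint list.

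Within 500 bp of a TSS, shn had 3 summits of differing strength. The one 196 bp before the second TSS had a joint signal of 597, with rank 2358 in replicate 1 and 404 in replicate 2. The one 12 bp after the third TSS had a signal of 224 and similar ranks, 3808 and 3950. The one 382 bp before the fifth TSS had a signal of 140 and ranks 10169 and 3952, with a q-value of 0.0916 in replicate 1. The first and last of these therefore rested more on replicate 2.

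**Figure D2:**
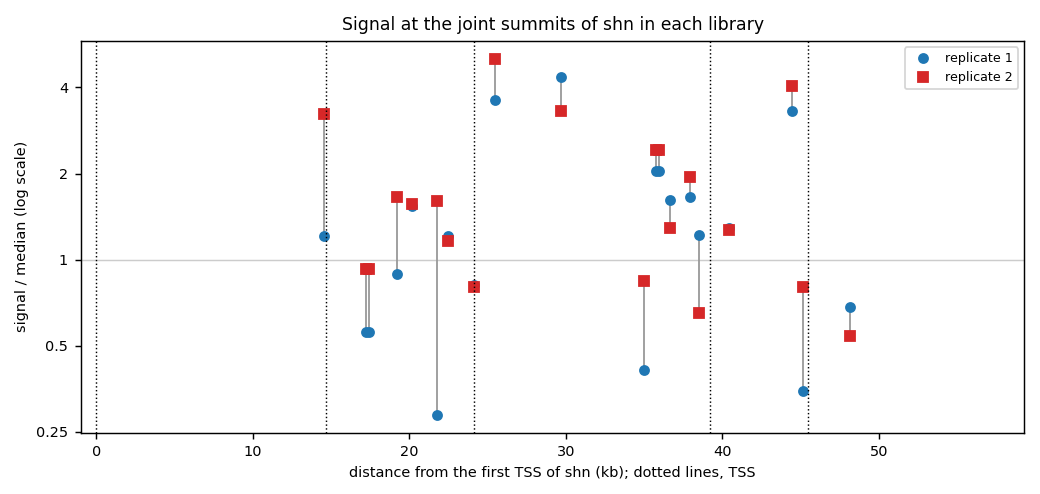
Signal at each of the 20 joint summits of shn in replicate 1 (circles) and replicate 2 (squares), divided by the median of the joint peaks in that library and drawn on a log scale against distance from the first TSS in kb; dotted lines are the 5 TSS. Both libraries peak at 25.5, 29.7 and 44.4 kb, and the widest separation is at 21.8 kb, where replicate 1 has 0.287 and replicate 2 has 1.60 times the median.

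Gene length bears on these counts, since the members are long: their median length was 10131 bp, against 2166 bp over all protein-coding genes. Over the members and 2 kb on either side there were 2.12 summits per 10 kb (232 kb in all), compared with 0.519 over the merged windows of all genes and 0.468 over the 6 arms. Without shn, which gave 40.8% of the summits from 26.9% of the length, the other members had 1.71 per 10 kb. By gene, the density was 3.21 at shn, 2.94 at Dad, 2.78 at brk, 2.40 at Med, 1.87 at put, 1.76 at gbb, 1.71 at Mad, 1.42 at tkv and 1.41 at dpp. Density therefore ordered the genes differently from the count, with tkv near the bottom and Dad near the top.

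**Figure D3:**
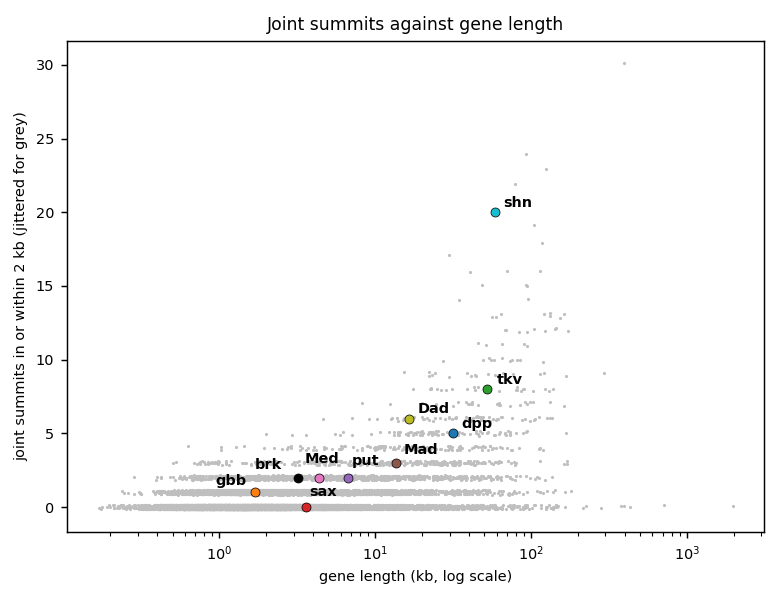
Joint summits in or within 2 kb of each protein-coding gene (grey) against gene length in kb on a log scale, with the 10 members in colour. At 58.3 kb and 20 summits shn stands above the genes of its length, while tkv, with 8 summits over 52.4 kb, lies closer to them.

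Against genes of its own length shn ranked first, which is a description only, since shn was picked with its count known. Within 25% of its length there were 236 genes, shn included, with a median of 2 summits and quartiles of 0 and 5, and 74 of them had none. After shn came Tlk with 16, Raf with 15, and pnt, psq and ush with 13 each. In replicate 1 alone shn had 16, ush 15 and Tlk 14, and in replicate 2 alone shn had 22 and Tlk 18, so shn was ahead of these genes in each library, by 1 summit in the first. Windows of fixed size, chosen after the values were seen, gave a mixed picture. A window of 30 kb at shn held up to 18 summits, against at most 17 elsewhere in the genome, and in replicate 2 alone 19, against 18. In replicate 1 alone it held 15, against 19 at heca on 3R. With windows of 20 kb the joint list had at most 13 at shn and 15 at Mnt on X, replicate 1 had 11 at shn and 14 elsewhere, and replicate 2 had 15 at shn and 14 elsewhere. With windows of 40 kb the joint list had 20 at shn and 21 elsewhere, and with 50 kb it had 22 at both. At these 2 sizes replicate 1 had 16 at shn against 22, and 18 against 24, while replicate 2 was tied at 21 and at 23.

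As genes carrying a summit, the members stood as follows. A joint summit lay within 500 bp of a TSS in 3 of the 10 (Med, Dad and shn), where 17.4% of all protein-coding genes had one. That share rested on single weak peaks for Med and Dad, and the libraries alone gave 2 members (Med and shn) and 4 (tkv, Mad, Dad and shn). Inside the gene, 7 of the 10 had a summit, against 13.3% of all genes, and within 2 kb 9 had one, against 34.0%. As the nearest gene to a summit, 8 of the 10 appeared, against 23.4%. For genes of 10 kb or longer the share with a summit inside was 50.1%, and the 5 members of that length (dpp, tkv, Mad, Dad and shn) all had one. The last limit was chosen after the values were seen, and 5 genes are too few to set against that background.

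The count at promoters moved most with the threshold. Within 1000 bp of a TSS, 6 members had a joint summit, where 21.0% of all genes did. With the stronger 3135 peaks of the joint list it was 1 member, shn, where 9.80% did. Using pooled peaks whose q-value was 0.05 or less, it was 8 members, all but sax and brk, where 30.1% did. The 5 genes added were Mad, tkv, dpp, gbb and put, with best pooled promoter ranks of 6873, 8209, 8580, 10293 and 11925.

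The member peaks were found again in both libraries about as often as other joint peaks. Of the 49, 48 had a peak in both full lists (98.0%), against 95.6% of all joint peaks. Among the strongest 6270 of both libraries were 38 (77.6%, against 74.7%), with 3 among those of replicate 1 only and 8 of replicate 2 only. With a q-value of 0.05 or less were 45 in replicate 1 and 49 in replicate 2, where the limit passed 9154 and 18385 peaks of the full lists. Among the 49, some neighbouring joint summits share a peak in the libraries (3 pairs, 1 at tkv and 2 at shn), so their library values are not separate measurements. In signal the members had a median of 322, against 248 over the whole joint list. Above the median of that list were 26 of the 49, and 8 were among its strongest 627 of 6270.

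**Figure D4:**
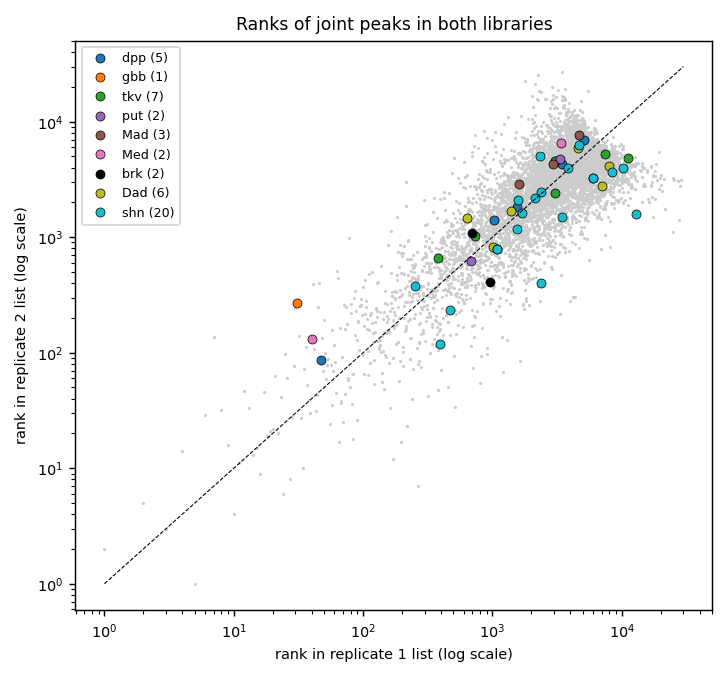
Rank of each joint peak in the replicate 1 list (horizontal) and the replicate 2 list (vertical), both on log scales, in grey for all joint peaks and in colour for those of the members. The peaks of dpp, gbb and Med at ranks 47, 31 and 40 of replicate 1 lie in the lower left corner, and the shn peak at ranks 12879 and 1580 lies far to the right of the main cloud.

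The balance between the libraries differed from gene to gene. It was measured as the log2 ratio of signal in replicate 2 to replicate 1, less its median over the joint peaks found in both. Over the members it had a median of -0.08 and an SD of 0.72, the same SD as over all joint peaks, with 23 peaks above 0 and 25 below. All 5 peaks of dpp, all 3 of Mad, both of Med and the 1 of gbb were below 0, with -0.56 at the main dpp peak and -1.27 at gbb. At shn 15 of 20 were above 0, with a median of 0.29 and a range from -0.85 to 2.52. Those 20 summits match 18 separate peaks in each library. The 2 pairs that share a peak are all above 0. Their ratios therefore enter the count, the median and the share below more than once. Of the 49 genes with at least 10 joint summits, the share of peaks above 0 ran from 26.7% to 91.7% with a median of 60.0%, and shn shared rank 5 with E2f1, bbg and px.

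GC content moved with this balance over the whole joint list: the median ratio was 0.33 in the lowest of 5 about equal groups of peaks by GC (8.91% to 25.7%), and 0.02, -0.09, -0.13 and -0.24 in the next ones up to the highest (39.6% to 68.3%). The member summits had a median GC of 31.7%, equal to that of the joint list, and ranged from 17.8% to 62.4%. The part of GC in the balance at single genes was not tested.

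**Figure D5:**
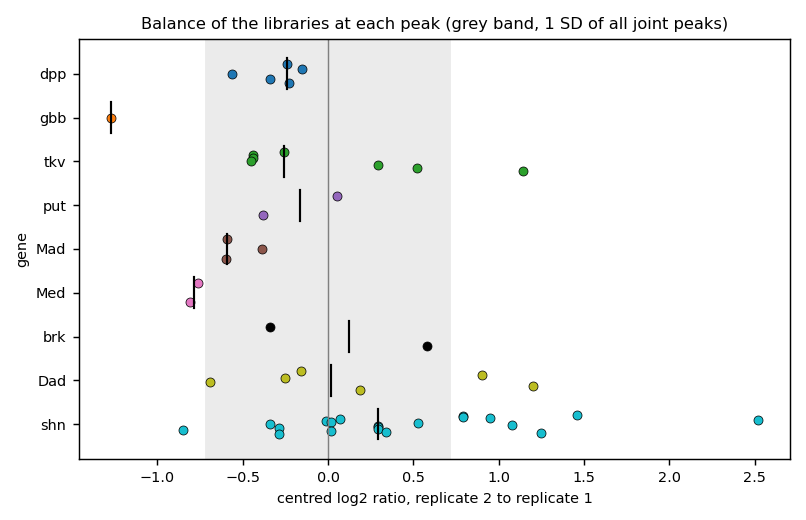
Centred log2 ratio of signal in replicate 2 to replicate 1 for every joint peak of the members found in both libraries, by gene; the grey band is 1 SD (0.72) of all joint peaks. The points of dpp, gbb, Mad and Med all lie below 0, and 15 of the 20 of shn lie above it, the farthest at 2.52. The 20 points of shn stand for 18 separate peaks in each library.

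Known binding sequences were present at the member summits at shares mostly near those of the whole joint list. In the window of 50 bp on either side, TAATTA was at 3 of 49 (6.12%, against 9.33% of all joint summits) and TAATTG at 5 (10.2%, against 10.4%). The forkhead core TAAACA was at 9 (18.4%, against 14.1%) and the GATA core AGATAAG at 1 (2.04%, against 1.61%). Sites of the pathway's own factors were also few. The Brk sequences GGCGCC, with its variants GGCGTC, or GGCGTT, or GGCGCT, were at 2 summits (4.08%, against 4.93%), 1 each at Med and shn. The Mad sequence GCCGNCGC was at 0 (0.590% of all), and so was the silencer element through which Mad, Med and Shn act (0.0159% of all). Both strands were searched, and matches are descriptions of letters only. With 100 bp on either side TAATTG was at 15 (30.6%, against 18.2%), so its share moved with the window. TAATTA was then at 5 (10.2%, against 16.7%), below the share of the joint list in both windows.

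A wider list of 39 BMP and TGF-beta pathway genes, which leaves out the 10 members, gives the setting. Of these, 15 had a joint summit within 500 bp of a TSS (38.5%, against 17.4% of all protein-coding genes). Inside the gene 15 had one, where 13.3% of all genes did, and within 2 kb 23 had one (59.0%, against 34.0%). They held 88 summits in all at 1.05 per 10 kb, against 0.519 over the merged windows of all genes. Like the members they are long, with a median of 10.5 kb, against 2166 bp over all protein-coding genes. By role, promoter summits were found at 1 of 5 further ligand genes (myo), 1 of 2 receptor genes (wit), 5 of 12 genes for extracellular regulators (cv-2, dally, dlp, magu and nord), 2 of 6 for intracellular regulators (gro and nej) and 6 of 13 target genes (bi, salr, tin, ush, peb and Ance). The remaining SMAD gene, Smox, had none at its promoter. The strongest promoter peaks were at tin, the heart and muscle factor, with a joint signal of 878 and ranks 518 and 320, at gro, the corepressor, with 861 and ranks 304 and 695, and at magu, an extracellular modulator, with 810 and ranks 392 and 682. By count Snoo, which encodes the Ski and Sno homologue, led with 15 summits, followed by ush, a GATA cofactor, with 13, and the glypican gene dlp with 8. None of these reached the 20 of shn.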

How the data were processed

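The authors deposited peak lists from anti-GFP ChIP-seq of 24 hour whole pupae, with chromatin sonicated to 200 to 800 bp per the labels. 4 lists were used: replicate 1, replicate 2 and the pool, each of 30000 peaks, and a joint list of 6270 that passed an irreproducible discovery rate threshold. Per the file headers and deposited notes, coordinates are on dm6; the peak caller is not named in the labels or notes used here. The signal column, which the authors deposited, is a score, used for ranks and descriptions within a list. The deposited -log10 q-value is capped. Read depth is not given, so the precision of one peak is unknown.

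Genes came from Ensembl release 115 and sequence from the RefSeq Release 6 assembly; coordinates are 1-based. Library peaks were matched by at least 1 bp. Library ratios were centred on their median over 5993 joint peaks found in both. Python 3.11.15, numpy 2.4.6 and pandas 2.3.3 were used, and the assignment of summits was tested on simulated positions. No test between groups was made, since there is 1 group with 2 libraries; all 10 members were described, with their strongest peaks and those at a TSS. The members and lists were chosen with earlier results of these data known. Alternatives covered the list, the TSS window, the flank, the sequence window and each library alone.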

Additional observations from a re-analysis of the deposited data

How the results depend on the processing

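Members with a summit at a promoter numbered 3 in the main setting, 1 with the stronger part of the joint list, 8 with pooled peaks of q-value 0.05 or less and 6 with a promoter window of 1000 bp. Summits over all members numbered 49, 26 and 83 under the first 3 of these settings, and those at shn 20, 12 and 31. The 15 other pathway genes with a promoter summit became 7 with the stronger part. With 100 bp on either side of the summit, TAATTA was found at 5 summits (10.2%, against 16.7% of all joint summits) and TAATTG at 15 (30.6%, against 18.2%). TAAACA was at 14 (28.6%, against 24.6%), AGATAAG at 2 (4.08%, against 2.89%) and the Brk sequences at 5 (10.2%, against 11.3%). The wider window itself holds more letters. Of the 54 alternative values, 41 stayed within 1.5 times of the main one or within the spread of the libraries. Leaving out a library gave 2 to 4 members with a promoter summit, 43 to 51 member summits and 16 to 22 at shn. No paired analysis was possible because there is 1 group. Depth is unknown and limits what can be said of weak peaks, and 2 libraries give a coarse estimate of spread.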
